A study of Mus musculus with 16 samples.

Results

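The 86 protein-coding genes for proteins of the cytosolic ribosome were taken from the 46517 gene identifiers measured in mouse thymocytes. They were chosen by symbol: Rpl or Rps followed by a digit, the stalk genes Rplp0, Rplp1 and Rplp2, and Rpsa, without pseudogenes and without the Rps6k kinases. Of these, 33 belong to the small subunit and 51 to the large subunit or its paralogues. The other 2, Rpl7l1, a factor of large subunit assembly, and Rps19bp1, a binding partner of a ribosomal protein, carry the symbols without being core subunits. The genes lay on 19 chromosomes, with 14 on chromosome 7.

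Flow sorting for live cells positive for CD4 and CD8, the double-positive stage of thymocyte development, gave the RNA; 16 mice aged 6 to 7 weeks were used, each for 1 library. All mice were NOD-AI4, non-obese diabetic mice that carry the transgenic T cell receptor AI4, so the cells of every group shared that receptor. The groups were NOD-AI4-60A, which carry an Nfkbid transgene (transgenic, 5 libraries: 3 male, 2 female), NOD-AI4-Nfkbid-/- (knockout, 5 libraries: 4 male, 1 female) and NOD-AI4 without either change (control, 6 libraries: 3 male, 3 female). Nfkbid encodes a nuclear inhibitor-of-kappa-B protein that modulates transcription by NF-kappa-B. Neither the promoter of the transgene nor the deleted part of Nfkbid is named in the labels.

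The ribosome builds every cellular protein from a small subunit, which reads the mRNA, and a large subunit, which forms peptide bonds. Its proteins are needed in near-equal numbers, and their mRNAs are among the most abundant in dividing cells. Most of these mRNAs begin with a C followed by a run of pyrimidines (the terminal oligopyrimidine or TOP motif), through which mTORC1 and LARP1 control their translation. In the thymus, loss of Rpl22 in mice blocks the development of alpha-beta T cells.

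The sequences around the transcription starts were taken from RefSeq (GRCm38.p6), which gave a promoter window for 66 of the 86 genes. They are shown because the TOP motif lies at the start itself and is the feature that these mRNAs are known to share. Each is 60 bases, 40 before and 20 from the annotated start onward, 5′ to 3′. Capitals mark a run of a C and at least 4 pyrimidines after it, counted from a C within 5 bases of the start. Pyrimidines further before the start were not counted, and in Rpl14 they lead directly into the marked run. The windows shown are a selection. Windows of Rps16, Rpl22 and a second Rps27l start, which do not hold this run, were left out. So were windows of Rps2, Rpl28, Rpl35 and Rps10, which hold it.
Rpl14 (chr9:120571477-120571536, plus strand): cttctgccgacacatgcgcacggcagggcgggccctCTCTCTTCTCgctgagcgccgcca
Rps6 (chr4:86857348-86857407, minus strand): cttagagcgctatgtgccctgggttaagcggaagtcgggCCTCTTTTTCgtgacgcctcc
Rplp2 (chr7:141447611-141447670, plus strand): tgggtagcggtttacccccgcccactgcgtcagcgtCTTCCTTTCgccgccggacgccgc
Rps27 (chr3:90213629-90213688, minus strand): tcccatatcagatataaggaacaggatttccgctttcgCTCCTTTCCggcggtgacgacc
Rps27l (chr9:66946046-66946105, plus strand): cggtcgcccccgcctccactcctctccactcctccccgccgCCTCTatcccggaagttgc
Rpl22l1 (chr3:28805468-28805527, plus strand): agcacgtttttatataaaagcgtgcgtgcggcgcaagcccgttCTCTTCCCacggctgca
Rpsa (chr9:120127726-120127785, plus strand): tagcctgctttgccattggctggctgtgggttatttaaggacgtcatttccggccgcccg

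The pyrimidine run was present, on the strand that reads as the RNA does, in 41.0% of the 78 promoter windows of ribosomal protein genes. It was present in 18.3% of all 32851 windows. Rpsa, whose annotated window is shown last, holds no such run at this position, which says only that these letters are not there. CCGGAAG, searched on both strands of the 300-base windows (250 before, 50 after the start), was in 34.6% of the ribosomal protein windows and 8.86% of all windows. TATAAA was in 8.97% and 13.6% and CACGTG in 10.3% and 7.15%. These matches are descriptions, and some genes have more than 1 window.

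Before the comparisons, the labels were checked against Nfkbid itself. It stood at 208 ± 72.1 counts per 1000000 (CPM) in transgenic libraries, 31.6 ± 4.30 in knockout libraries and 32.7 ± 2.87 in controls (SD, n = 5, 5 and 6). Reads of the knockout libraries therefore did not show less Nfkbid, and these libraries are called knockout-labelled throughout. Library totals lay between 17955743 and 35637813 estimated counts. All 3 male controls were sequenced more deeply than the 3 female controls, and the sample identifiers of the controls belong to another series than those of the other mice, so the control group and that series cannot be told apart. The defining markers Cd4, Cd8a, Cd8b1 and Rag1 were detected in each group. In bulk RNA, fewer cells of a type and less RNA per cell cannot be told apart.

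Ribosomal protein mRNA made up a larger part of the RNA in transgenic and in knockout-labelled libraries than in controls. The share of counts on the 86 genes was 3.23%, 3.07%, 2.87%, 2.86% and 2.79% in the transgenic libraries. It was 2.86%, 2.65%, 2.71%, 3.06% and 2.68% in the knockout-labelled libraries. In controls the lowest share was 2.17%, the median 2.29% and the highest 2.54%. Every transgenic and every knockout-labelled library lay above every control, whereas the transgenic and knockout-labelled ranges overlapped. The means were 2.96% ± 0.183, 2.79% ± 0.170 and 2.32% ± 0.142 (SD, n = 5, 5 and 6). The highest values came from the 2 female transgenic libraries and from knockout-labelled replicate 4, the library with the largest total.

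**Figure D1:**
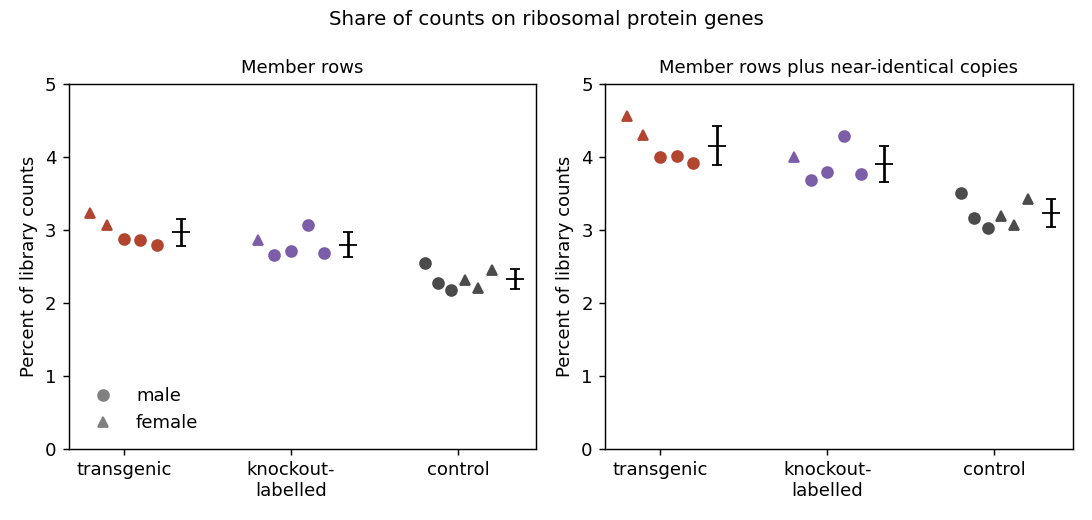
Percent of each library's counts on ribosomal protein genes (left) and on these genes plus near-identical pseudogene copies (right), by group. Each symbol is 1 library (circle male, triangle female) and the bar is mean ± SD; the transgenic libraries (2.79% to 3.23% in the left panel) and knockout-labelled libraries (2.65% to 3.06%) sit above the controls (2.17% to 2.54%).

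Gene by gene, the increase was broad and small. Of the 84 genes with enough counts to test, 71 were higher in transgenic than in control thymocytes and none was lower (edgeR quasi-likelihood test, Benjamini-Hochberg adjusted p under 0.05 over 14933 genes). In that comparison 23.0% of all genes tested were called higher and 15.6% lower. In knockout-labelled against control libraries 67 were higher and none lower, where 16.4% of all genes tested were called higher and 10% lower. The median log2 fold change was 0.36 (1.28-fold) in transgenic and 0.28 (1.21-fold) in knockout-labelled libraries against controls, beside 0.03 and 0.02 over all genes tested. The typical standard error of a single gene was 0.07 on this log2 scale for knockout-labelled against control. Both comparisons use the same 6 controls. Among males alone (10 libraries) 40 and 37 genes were called higher and Rpl10 was lower in transgenic libraries, where 20.9% and 18.2% of all genes were called in either direction, and the medians were 0.27 and 0.24. After GC content and length had been corrected for, 62 and 41 were higher, 1 was lower in each, and the medians were 0.21 and 0.18. Of all genes, 40% and 27.4% were then called in either direction, with medians of −0.04 and −0.02. The ribosomal protein transcripts are short, with a median of 634.5 bases against 1363 for all genes tested.

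**Figure D2:**
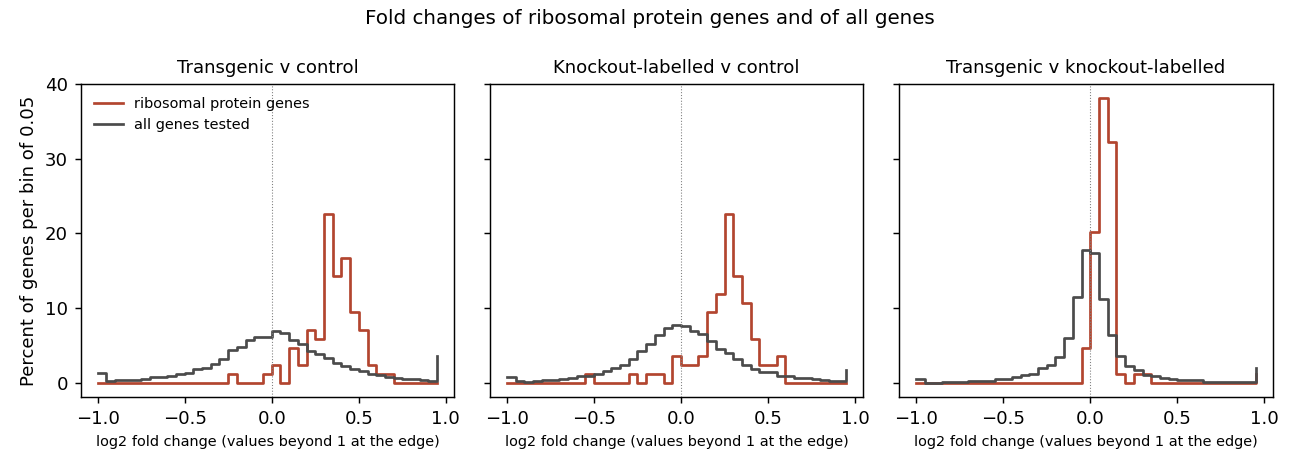
Distribution of log2 fold changes of the 84 tested ribosomal protein genes (red) and of all 14933 genes tested (grey), as percent of genes per bin of 0.05, for transgenic against control, knockout-labelled against control, and transgenic against knockout-labelled. The ribosomal protein genes centre at 0.36, 0.28 and 0.08, and all genes at 0.03, 0.02 and 0.00.

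The transgenic and knockout-labelled libraries were not separated at any single ribosomal protein gene, as was so for nearly all genes tested. None of the 84 passed the test, where 1.07% of all genes were called higher and 0.0938% lower in transgenic libraries, and DESeq2 and limma-voom called none either. At an unadjusted p under 0.05, 6 of the 84 stood out. Rpl17 and Rpl13a had the smallest p values, with log2 differences of 0.14 ± 0.055 and 0.13 ± 0.054 (SE) and adjusted p of 0.346 and 0.414. The median log2 difference was 0.08 and 80 of the 84 values were above 0, beside a median of 0.00 over all genes tested. These values depended on which libraries entered. Without knockout-labelled replicate 4 the median was 0.13, 83 values were above 0 and 26 genes had an unadjusted p under 0.05, while leaving out any other single library gave medians of 0.06 to 0.10 and 0 to 7 such genes. Without 4 libraries high in MHC class II transcripts (control replicate 1 and knockout-labelled replicates 1 to 3) the median was 0.01 and 51 values were above 0. Among males alone the median was 0.02 and 60 were above 0. None of the 84 was called in any of these fits.

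Both subunits took part. Of the 33 small subunit genes, 29 were higher in transgenic and 28 in knockout-labelled libraries against controls, with medians of 0.41 and 0.29. Of the 49 tested large subunit genes, 40 and 38 were higher, with medians of 0.35 and 0.27. The ratio of small to large subunit counts, copies included, was 0.710 ± 0.0051 in transgenic, 0.708 ± 0.0044 in knockout-labelled and 0.701 ± 0.0065 in control libraries.

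Among small subunit genes with large increases was Rpsa, which encodes uS2, also known as a laminin receptor. Its own row held 261, 234, 223, 227 and 221 CPM in transgenic libraries and 233, 203, 218, 251 and 192 CPM in knockout-labelled libraries. Controls ranged from 140 to 168 CPM with a median of 145. Neither group overlapped the controls, and the log2 fold changes were 0.63 ± 0.070 (adjusted p = 1.5e-05) and 0.56 ± 0.072 (adjusted p = 0.00028).

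Rps2, a protein at the mRNA entry of the small subunit, was even across transgenic libraries, at 536, 522, 513, 538 and 513 CPM. Knockout-labelled libraries held 523, 482, 494, 668 and 444 CPM, and controls ranged from 334 to 405 with a median of 350. The log2 fold changes were 0.54 ± 0.082 and 0.53 ± 0.085, and the knockout-labelled spread came mostly from replicate 4.

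Rps16, which sits by the peptidyl tRNA site, had small errors. Its row held 196, 200, 188, 181 and 178 CPM in transgenic libraries and 179, 156, 170, 192 and 164 CPM in knockout-labelled libraries. Controls ranged from 120.5 to 142 CPM with a median of 129, so no control overlapped either group. The log2 fold changes were 0.53 ± 0.058 and 0.42 ± 0.060. Rps6, the target of S6 kinase, held 751, 715, 689, 653 and 658 CPM in transgenic libraries and 667, 600, 623, 714 and 593 CPM in knockout-labelled libraries. Controls ranged from 487 to 553 CPM with a median of 497, and the log2 fold changes were 0.44 ± 0.056 and 0.34 ± 0.057. All transgenic and knockout-labelled libraries were above every control for this gene.

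Other small subunit genes with known roles in disease moved the same way. Rps19, mutated in Diamond-Blackfan anaemia in humans, averaged 262 ± 17.4 CPM in transgenic, 251 ± 36 in knockout-labelled and 188 ± 17.1 in control libraries. Its log2 fold changes against controls were 0.49 ± 0.083 and 0.43 ± 0.085. Rps26, mutated in the same human disease, had log2 fold changes of 0.48 ± 0.086 and 0.41 ± 0.089. Rps3, which also acts in DNA repair, had 0.34 ± 0.062 and 0.29 ± 0.064, and Rps14, whose human orthologue is lost in the 5q- syndrome, had 0.30 ± 0.057 and 0.20 ± 0.059. Rps4x, the X-linked form of this protein, had 0.42 ± 0.061 and 0.35 ± 0.062. All of these passed the test in both comparisons.

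In the large subunit, Rpl3, which lies near the peptidyl transferase centre, held 804, 790, 729, 776 and 742 CPM in transgenic libraries and 776, 719, 721, 912 and 623 CPM in knockout-labelled libraries. Controls ranged from 476 to 619 CPM with a median of 508. Both groups lay above all controls, with log2 fold changes of 0.54 ± 0.081 and 0.53 ± 0.083. The lowest knockout-labelled library exceeded the highest control only slightly. Rpl14 had log2 fold changes of 0.56 ± 0.092 and 0.49 ± 0.095. Its knockout-labelled libraries, from 164 to 241 CPM, overlapped controls, from 134 to 168 CPM, while its transgenic libraries, from 198 to 254 CPM, did not.

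The stalk proteins recruit elongation factors to the ribosome. Rplp0 held 1398, 1291, 1214, 1262 and 1159 CPM in transgenic libraries and 1271, 1135, 1164, 1326 and 1145 CPM in knockout-labelled libraries, while controls ranged from 888 to 1128 CPM with a median of 916. Rplp2 held 605, 446, 414, 399 and 395 CPM and 433, 364, 388, 443 and 445 CPM in the same 2 groups, against 294 to 367 CPM with a median of 315 in controls. The first transgenic library stood apart for Rplp2, and the lowest knockout-labelled library fell just inside the control range. All 3 stalk genes were higher in both comparisons, with log2 fold changes of 0.40 to 0.49 in transgenic and 0.35 to 0.40 in knockout-labelled libraries.

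**Figure D3:**
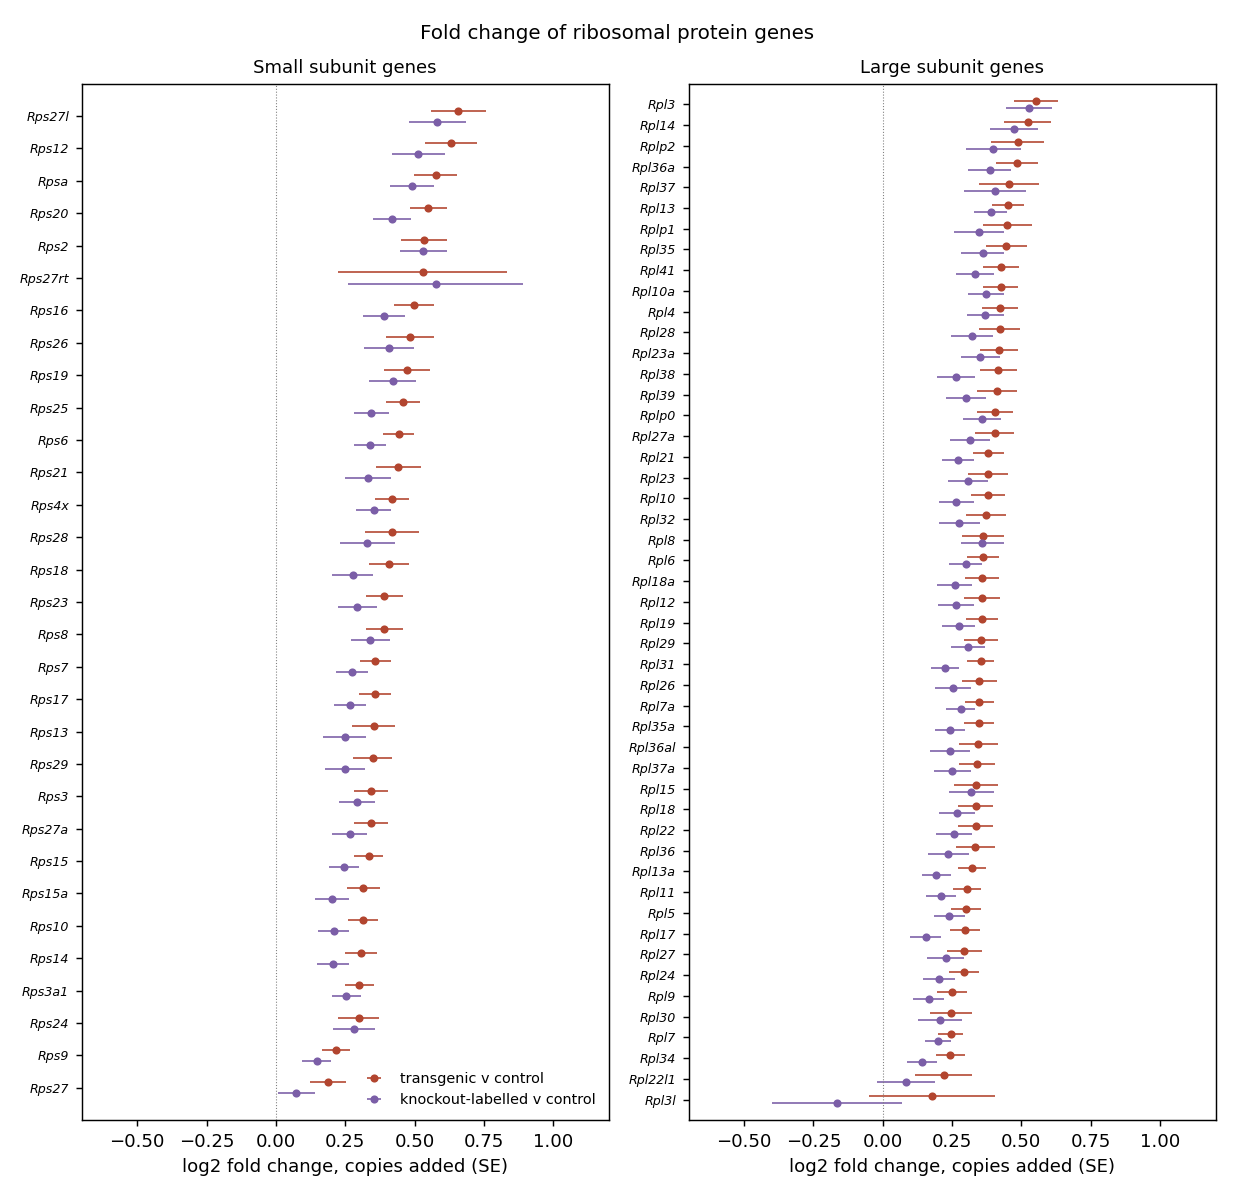
Log2 fold changes of tested small subunit genes (left) and large subunit genes (right), with the counts of near-identical pseudogene copies added to their parent; points are estimates and bars are SE, for transgenic against control (red) and knockout-labelled against control (purple). The small subunit runs from Rps27 (0.19 and 0.07) to Rps27l (0.66 and 0.58), and in transgenic libraries every point lies above 0.

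The paralogues did not all behave alike. Rps27l, a p53-inducible relative of Rps27 in human cells, had the largest log2 fold change of the tested genes with a mean of at least 10 length-scaled units (TPM, transcripts per 1000000): 0.66 ± 0.099 in transgenic and 0.58 ± 0.102 in knockout-labelled libraries against controls. It held 38.0, 42.5, 33.0, 35.7 and 34.2 CPM in transgenic and 34.3, 31.6, 30.2, 45.7 and 30.2 CPM in knockout-labelled libraries. Controls ranged from 21.5 to 25.1 CPM with a median of 23.7, below every other library. Rps27 itself held 551, 492, 475, 432 and 422 CPM in transgenic and 482, 388, 395, 438 and 446 CPM in knockout-labelled libraries, and 393 to 465 CPM with a median of 407 in controls. These ranges overlapped. Rps27 was called higher in transgenic libraries (log2 0.19 ± 0.065, adjusted p = 0.032) and was not called in knockout-labelled libraries (log2 0.07 ± 0.067, adjusted p = 0.45).

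The ratio of Rps27l to Rps27 was tested directly in each library. Unlike the fits of single genes, the permutation tests of ratios had no term for sex, which is unbalanced over the groups. On the log2 scale it averaged −3.69 ± 0.150 in transgenic, −3.66 ± 0.244 in knockout-labelled and −4.17 ± 0.0928 in control libraries (SD). The differences from controls were 0.47 and 0.51, each with an exact two-sided permutation p of 0.00433 (adjusted p = 0.0195 over 9 ratio tests), and neither group overlapped the controls. A p of 0.00433 is the smallest that this two-sided test allows for groups of these sizes. Between transgenic and knockout-labelled libraries the ratio differed by −0.03 (exact p = 0.817).

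Rpl22, needed for alpha-beta T cell development in mice, and its paralogue Rpl22l1, which Rpl22 represses in mice, also differed. Rpl22 held 224, 239, 210, 205 and 191 CPM in transgenic and 212, 192, 195, 218 and 185 CPM in knockout-labelled libraries, against 158 to 193 CPM with a median of 165 in controls. It was called higher in both, with log2 fold changes of 0.33 ± 0.064 and 0.26 ± 0.066, although single libraries overlapped. Rpl22l1 was called in neither, at 0.22 ± 0.104 (adjusted p = 0.11) and 0.09 ± 0.106 (adjusted p = 0.58). The log2 ratio of Rpl22l1 to Rpl22 differed from controls by −0.16 in knockout-labelled libraries (exact permutation p = 0.0216, adjusted p = 0.0486). In transgenic libraries the difference was −0.11 (exact permutation p = 0.0866, adjusted p = 0.13).

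The ratio of Rpl36al to the X-linked Rpl36a, with copies added, differed from controls by −0.14 on the log2 scale in transgenic libraries (exact permutation p = 0.013, adjusted p = 0.039) and by −0.13 in knockout-labelled libraries (exact permutation p = 0.0303, adjusted p = 0.0545). Rpl36a itself was higher in both comparisons. Rpl3l, the striated muscle form of Rpl3, was near the detection floor at 1.42 ± 0.258, 1.1 ± 0.333 and 1.29 ± 0.319 CPM in transgenic, knockout-labelled and control libraries. Rpl10l and Rpl39l, forms known mainly from testis, were not tested: Rpl10l had no counts in any library and Rpl39l had a mean of 2.63 counts. Rps27rt, a retrotransposed copy of Rps27, was measured at a mean of 105 counts with a wide error, at log2 0.53 ± 0.305 and 0.57 ± 0.316, and was not called.

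**Figure D4:**
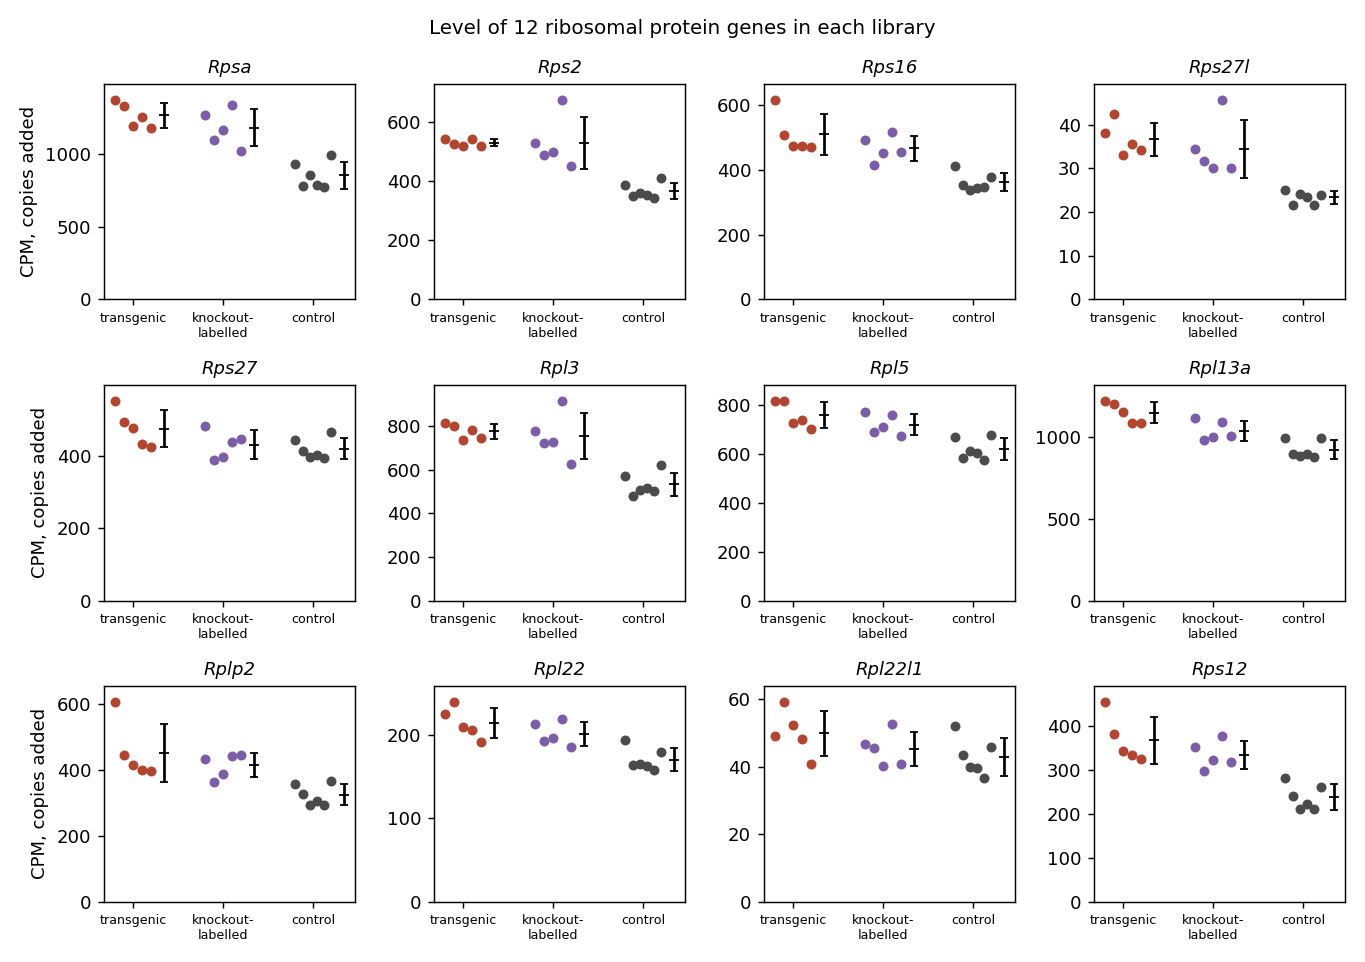
Level in CPM, with the counts of near-identical copies added, of 12 ribosomal protein genes in each library; points are libraries and bars are mean ± SD, and each vertical axis starts at 0. For Rps27l, Rpsa and Rps12 the transgenic and knockout-labelled libraries lie above all controls, while for Rps27 and Rpl22l1 the 3 groups overlap.

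Ribosomal protein genes are known for their many retrotransposed copies, and the deposited counts divide reads between parents and copies. A copy was taken as a pseudogene row whose transcript matched a parent transcript at 95% identity or more over at least 150 bases. There were 523 such copies of 76 of the 86 genes, and they held 28.3% of the counts of genes and copies together. The copies as a whole were 1.19% ± 0.0863 of counts in transgenic, 1.11% ± 0.0730 in knockout-labelled and 0.902% ± 0.0543 in control libraries. Stretches of 60 coding bases show how alike a parent and a copy can be; capitals mark the bases that differ.
Rpsa (chromosome 9): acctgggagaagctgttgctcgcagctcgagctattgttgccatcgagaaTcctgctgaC
Rpsa-ps10 (chromosome 3): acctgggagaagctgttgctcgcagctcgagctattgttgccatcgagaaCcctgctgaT
Rps7 (chromosome 12): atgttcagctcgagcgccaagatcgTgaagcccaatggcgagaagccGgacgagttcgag
Gm6472 (chromosome X): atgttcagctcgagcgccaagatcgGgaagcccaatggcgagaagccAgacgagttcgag

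Adding the copies to their parents raised the number of genes called. Then 81 of 84 were higher in transgenic and 77 of 84 in knockout-labelled libraries against controls, with none lower. Of all genes, 23.2% and 16.5% were then called higher and 15.6% and 10% lower. The medians were 0.36 and 0.28, as before, and none was called between transgenic and knockout-labelled libraries, where 1.12% of all genes were higher and 0.0948% lower. Of the 46 tested genes whose own row held at least 90% of the combined counts, 43 and 41 were higher on their own row. Of the 26 genes whose own row held under 50%, 16 and 16 were higher on their own row, and 26 and 24 with the copies added. This pooling was chosen after the data had been seen.

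Rps12, a small subunit protein, had the smallest own share. Its own row averaged 33.4 counts and its copies 7186, and the row held 11.95 CPM in transgenic replicate 1 against 0.0532 to 0.586 CPM in the other transgenic libraries. The log2 fold changes of the row alone, 0.47 ± 1.56 in transgenic and −0.52 ± 1.47 in knockout-labelled libraries, had errors larger than the values. With copies, Rps12 held 456, 382, 345, 335 and 326 CPM in transgenic and 353, 298, 323, 379 and 318 CPM in knockout-labelled libraries. Controls ranged from 212 to 283 CPM with a median of 232. The log2 fold changes were then 0.63 ± 0.093 and 0.51 ± 0.096.

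Rpl5 and Rpl11 form, with 5S rRNA, the particle that inhibits the p53 regulator MDM2. The Rpl5 row held 4.15% of its combined counts, with log2 fold changes of 0.01 ± 0.082 in transgenic and −0.03 ± 0.085 in knockout-labelled libraries. Its copy Gm15500, identical to Rpl5 over 1018 bases, averaged 728 ± 52.1, 690 ± 42 and 589 ± 42.9 CPM in transgenic, knockout-labelled and control libraries. With copies, Rpl5 held 814, 816, 724, 739 and 702 CPM in transgenic and 770, 690, 707, 756 and 671 CPM in knockout-labelled libraries. Controls ranged from 574 to 678 CPM with a median of 607, and the log2 fold changes were 0.30 ± 0.055 and 0.24 ± 0.057. Rpl11 with copies had log2 fold changes of 0.30 ± 0.051 and 0.21 ± 0.053, and neither group overlapped the controls.

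Rps27a, which is made as a fusion with ubiquitin, was not called on its own row, at log2 0.20 ± 0.113 in transgenic and 0.17 ± 0.115 in knockout-labelled libraries. With copies it was 0.34 ± 0.061 and 0.27 ± 0.063 and passed in both comparisons. Rpl10, a late-joining large subunit protein, was −0.22 ± 0.185 and −0.28 ± 0.188 on its own row and 0.38 ± 0.061 and 0.27 ± 0.063 with copies. Still not called with copies were Rpl22l1, Rpl3l and Rps27rt in transgenic libraries, and Rpl22l1, Rpl30, Rpl34, Rpl3l, Rps19bp1, Rps27 and Rps27rt in knockout-labelled libraries.

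**Figure D5:**
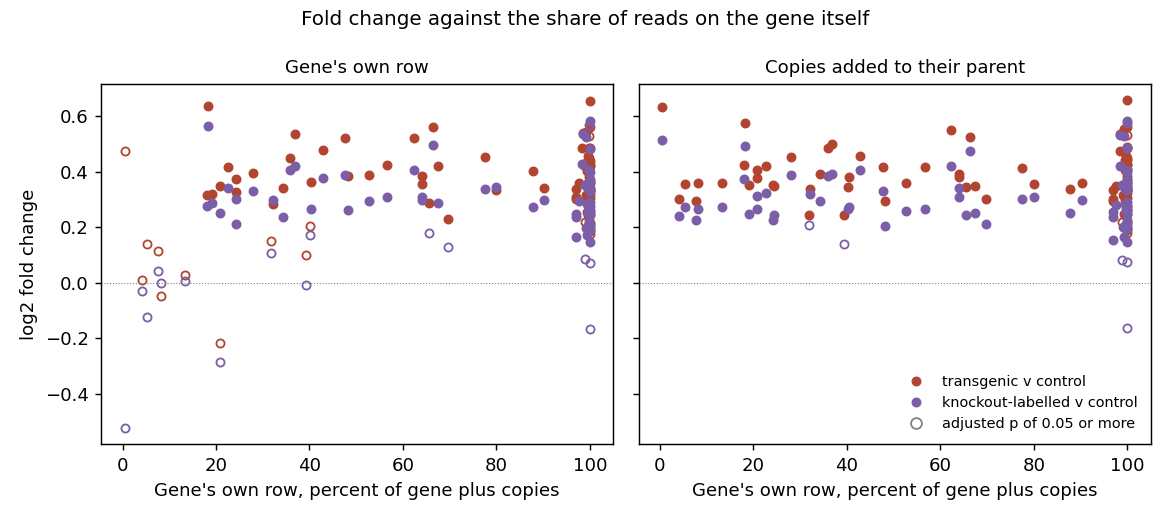
Log2 fold change of each tested ribosomal protein gene against the percent of its combined counts that lie on its own row, for the own row (left) and with copies added (right); red is transgenic against control, purple knockout-labelled against control, and open circles have an adjusted p of 0.05 or more. On the left, Rpl5 and Rpl10, whose own rows hold small shares, lie between −0.28 and 0.01, and Rps12 at 0.47 in transgenic and −0.52 in knockout-labelled libraries; on the right these 3 genes lie between 0.24 and 0.63.

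The most abundant ribosomal protein mRNAs differed in the size of their change. On the TPM scale, which accounts for transcript length, and on the own rows alone, Rpl13a led in controls at 3324 ± 147, followed by Rps27 at 2748 ± 130, Rps9 at 2267 ± 78.4, Rps24 at 2163 ± 92.3 and Rpl23a at 1970 ± 105 (SD, n = 6). The control ranges of Rpl13a and Rps27 did not overlap, nor did those of Rps27 and Rps9. Rps9 and Rps24 overlapped, as did Rps24 and Rpl23a. The order was another with the TPM of copies added. Then Rps29 led at 5002 ± 530.3, above Rpl13a at 3326 ± 147 and Rps27 at 2748 ± 130 in every control. Rpl31 at 2541 ± 86.5 and Rpl28 at 2495 ± 106 came before Rps9 by their means. The own row of Rps29 held 1449 to 1697 TPM in controls, so most of its TPM came from copies. In CPM with copies, not scaled for length, Rps29 ranged from 404 to 489 in controls and Rpl13a from 877 to 994. The lead of Rps29 thus depended on the length scaling. On the own rows, log2 fold changes of Rpl13a were 0.32 ± 0.051 and 0.19 ± 0.052 in transgenic and knockout-labelled libraries, and those of Rps9 were 0.22 ± 0.051 and 0.15 ± 0.053. Rps24 had 0.30 ± 0.074 and 0.28 ± 0.077, and Rpl23a had 0.42 ± 0.069 and 0.35 ± 0.071.

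Ribosomal proteins outside the symbol rule, and lists of genes that work with the ribosome, were set beside the shares of all genes tested given above (23.0% higher and 15.6% lower in transgenic, 16.4% and 10% in knockout-labelled libraries). Fau, which encodes a ribosomal protein fused to a ubiquitin-like protein, and Rack1, a scaffold on the small subunit, passed the test in both comparisons. Fau averaged 350 ± 32.4 CPM in transgenic, 309 ± 14.9 in knockout-labelled and 273 ± 9.15 in control libraries, with log2 fold changes of 0.36 ± 0.052 and 0.20 ± 0.053. Rack1 had log2 fold changes of 0.29 ± 0.053 and 0.24 ± 0.054. Of 81 tested ribosome biogenesis genes, 46 were higher and 1 lower in transgenic libraries, and 49 were higher and none lower in knockout-labelled libraries. Tsr1, a small subunit maturation factor, averaged 36.1 ± 2.73, 36.2 ± 5.25 and 23.7 ± 2.92 CPM in transgenic, knockout-labelled and control libraries. Among 15 RNA polymerase I genes, 6 and 4 were higher and none lower, with medians of 0.07 and 0.10; at this list size such counts are not far from the shares of all genes. Polr1a, its largest subunit, had log2 fold changes of 0.49 ± 0.096 and 0.54 ± 0.098.

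Of 16 translation factors with TOP mRNAs, 13 were higher in transgenic and 11 in knockout-labelled libraries, and none was lower. Eef1a1, the main elongation factor, averaged 5815 ± 351 CPM, 5560 ± 410 CPM and 4450 ± 349 CPM in transgenic, knockout-labelled and control libraries. Of 30 other initiation factors, 17 and 13 were higher and 2 and 1 lower. Eif4a2, an RNA helicase, was among those lower, with log2 fold changes of −0.39 ± 0.061 and −0.37 ± 0.063. Mitochondrial ribosomal proteins, encoded in the nucleus, were higher in 61 and 53 of 78 genes and lower in none.

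Of 13 tested genes of the mTORC1 pathway itself, 1 was higher in transgenic libraries, and in knockout-labelled libraries 1 rose and 1 fell; the list medians were 0.02 and 0.03, beside 0.03 and 0.02 over all genes. Larp1, the TOP-mRNA binding protein, had log2 fold changes of 0.29 ± 0.068 and 0.27 ± 0.070. Of 9 tested p53 targets, 1 was higher and 3 lower in both comparisons. Their medians were −0.23 in transgenic and −0.15 in knockout-labelled libraries, beside 0.03 and 0.02 over all genes. With so few genes, whether these counts differ from the shares of all genes was not tested. Mdm2 averaged 140 ± 4.02 CPM in transgenic, 141 ± 5.08 in knockout-labelled and 167 ± 11.5 in control libraries. None of the genes in these lists was called between transgenic and knockout-labelled libraries, where 1.07% of all genes were called higher and 0.0938% lower. For lists of this size, the absence of called genes is close to those shares.

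Other features of the RNA were set beside the ribosomal proteins, and their part in the result was not tested. Of all genes tested, 23.0% were called higher and 15.6% lower in transgenic libraries, and 16.4% and 10% in knockout-labelled libraries. With marker lists this small, whether their counts differ from these shares was not tested. Of 12 double-positive thymocyte markers, 1 was higher and 8 lower in transgenic, and 1 higher and 4 lower in knockout-labelled libraries; their summed level ranged over 6030 to 6719, 6259 to 7762 and 5976 to 8842 CPM in transgenic, knockout-labelled and control libraries. Of 8 tested markers of earlier thymocytes, 3 were higher in each, with sums of 313 to 454, 289 to 388 and 244 to 405 CPM. Markers of mature single-positive cells were higher in 8 of 11 genes in transgenic and in none in knockout-labelled libraries, with sums of 1434 to 1943, 1014 to 1320 and 877 to 1421 CPM. B cell markers were higher in 10 of 12 genes in transgenic libraries, while the knockout-labelled libraries had 3 higher and 2 lower, with sums of 669 to 854, 361 to 481 and 394 to 460 CPM. Macrophage and dendritic cell markers were higher in 10 of 12 and 0 of 12, with sums of 19.7 to 25.2, 4.20 to 14.9 and 6.04 to 11.9 CPM. Granulocyte markers summed to at most 0.498 CPM in any library, and Elane was at 0 in all. Of 5 erythroid markers tested none was called, and of 4 stromal and epithelial markers 1 was lower in transgenic libraries. The nuclear RNA Malat1 took 0.276% ± 0.0382, 0.291% ± 0.0168 and 0.423% ± 0.0653 of counts in transgenic, knockout-labelled and control libraries, while mitochondrial transcripts took 1.47% ± 0.365, 1.38% ± 0.157 and 1.46% ± 0.148.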

How the data were processed

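Per the labels' protocols, TRIzol RNA with an integrity number above 9 went into stranded KAPA libraries, 1 per mouse. The authors used Bowtie 1.0.0, SAMtools 0.1.18 and edgeR 3.24.3 with GRCm38 (mm10), per the submitters' processing notes; no source used here names the counting program. The deposited estimated counts (expected counts) are not normalized, and 58.7% of those above 0 were whole within 1e-06, so reads shared between genes were divided. The deposited TPM values are scaled for length and total by the authors, and were tested only as an alternative. Identifiers without a symbol in the GENCODE annotation of GRCm38 (512) held 0.171% of counts.

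Here estimated counts were rounded, filtered by group expression, scaled by TMM and fitted by edgeR 4.0.16 (R 4.3.3), with group and sex as terms and robust quasi-likelihood dispersions, over all 16 libraries (12 residual degrees of freedom). P-values are two-sided and adjusted by Benjamini-Hochberg over 14933 genes. A gene is called at an adjusted p under 0.05; "adjusted p" of a gene is this edgeR value. SEs were derived from the F statistic (log2 fold change over root F). CPM uses TMM-scaled library sizes. Library totals of 17955743 to 35637813 counts set the precision. For genes with many counts, counting error is small beside the spread between mice (common coefficient of biological variation 0.128). This need not hold for rows with few counts, such as Rpl3l and the own row of Rps12. The script was tested on simulated data. Pseudogene copies were matched with blastn. Sequences are from RefSeq (promoters) and GENCODE (transcripts).

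Members and lists were chosen with earlier results of these data known, and the direction of the ribosomal protein genes is therefore not independent evidence. The text names the 6 called members with the largest rise or fall among those with a mean TPM of at least 10, the 3 with the smallest p, the 5 highest control TPM levels, fixed paralogue, stalk, 5S particle and disease genes, and the leading genes of related lists. Rps12, Rps7, Rpl10, Rpl30, Rpl34, Rpl17, Rps29, Rpl31 and Rpl28 were named after their values were seen. A few genes are left out of the text and of the plot of single genes. Same-numbered replicates did not deviate together in every pair (correlations from −0.088 to 0.273), so they were not treated as pairs. Alternatives were DESeq2 1.42.0, limma-voom (limma 3.58.1), RLE size factors, library totals, other filters, no sex term, the compared groups alone, males only, a replicate block, GC and length correction, TPM with a pseudocount of 1, a fold of 1.2, and leaving out libraries.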

Additional observations from a re-analysis of the deposited data

Results flagged for a closer look

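In transgenic replicate 1, Rplp2 stood at 605.2 CPM, far above the other transgenic libraries (395 to 446 CPM). Rps19 stood there at 291.9 CPM, against 249 to 262 CPM in the other transgenic libraries. In knockout-labelled replicate 4, Rps27l stood at 45.74 CPM, far above the other knockout-labelled libraries. The Rps12 row stood at 11.95 CPM in transgenic replicate 1 and 5.091 CPM in control replicate 1, each far above the rest of its group, which were near 0. These were 5 of 114 groups of values checked, where chance gives about 1 in 20.

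The pseudogene copies, which the counts of ribosomal protein genes leave out, took 1.19% of counts on average in transgenic and 1.11% in knockout-labelled libraries, against 0.902% in controls.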

How the results depend on the processing

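The number of ribosomal protein genes called higher in transgenic libraries against controls was 71, and 40 among males only, 62 after GC and length correction and 24 against a fold of 1.2, beside 38.6%, 20.9%, 40% and 9.56% of all genes called in either direction in the same fits. In knockout-labelled libraries it was 67, and 37 among males only, 41 after the correction and 5 against a fold of 1.2, beside 26.4%, 18.2%, 27.4% and 2.77% of all genes. Leaving out each library gave 66 to 72 and 51 to 70, beside 30.9% to 39.5% and 19.3% to 28.2% of all genes. Without the libraries high in MHC class II genes the counts were 72 and 58 (33.1% and 9.26% of all genes), and without those high in interferon genes 66 and 46 (28.8% and 15.0%). Under DESeq2, limma-voom, RLE size factors and library totals the counts were 68, 70, 68 and 71 in transgenic libraries. Of all genes, 39.6%, 37.5%, 38.5% and 37.6% were called there in either direction. In knockout-labelled libraries the counts were 66, 67, 64 and 67, beside 29.0%, 25.2%, 26.7% and 25.1% of all genes. A single gene was called lower in transgenic libraries among males only (1, Rpl10), after the correction (1, Rpl12) and with TPM (1, Rpl12). In knockout-labelled libraries a single gene was lower after the correction (1, Rpl34), with or without the replicate block (1). These are own rows. Rpl10, Rpl12 and Rpl34 had most of their combined counts on copies, and with copies added to the main fit no gene was called lower. With the replicate number as a block, 72 and 67 were higher and none was lower, beside 39.4% and 27.7% of all genes called. None was called between transgenic and knockout-labelled libraries, where 1.11% of all genes were. The correction with the block gave 64 and 48, beside 39.8% and 27.7% of all genes. The related lists, of 3 to 81 tested genes each, held 12 lower genes under DESeq2 and 10 with RLE size factors in transgenic libraries. Of all 14933 genes tested, 2883 and 2807 were called lower in these fits. In the main fit 1 ribosome biogenesis gene, 2 other initiation factors and 3 p53 targets were lower, beside 2327 of all genes.

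The summed share was 8.24%, 7.88% and 6.90% of TPM in transgenic, knockout-labelled and control libraries, 3.59%, 3.38% and 2.79% of counts with named pseudogenes, and 4.15%, 3.9% and 3.22% with copies found by sequence; the cause of other moves was not tested.

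Direction changed in genes that were not called. In knockout-labelled libraries the log2 fold change of Rps27 was −0.0107 among males only, −0.0426 after the correction and −0.036 with the block too, and that of Rpl22l1 was −0.00999 among males only. The Rps12 row was 0.779 with limma-voom, 0.837 with the block, 0.738 with block and correction, 0.247 with TPM, 5.86 without the class II-high libraries, 0.514 with copies and −1.85 to 3.07 as each library was left out. In transgenic libraries it was −4.16 among males only and −2.35 to 2.56 as each library was left out. Rpl10 in knockout-labelled libraries was 0.0186 without the class II-high libraries and 0.266 with copies, and 0.379 with copies in transgenic libraries. The Rpl5 row in knockout-labelled libraries was 0.0821 among males only, 0.00598 with the block, 0.0105 with block and correction, 0.24 with copies and −0.101 to 0.0437 as each library was left out. In transgenic libraries it was −0.0213 with DESeq2, −0.0216 with RLE size factors, −0.0146 without a filter, −0.0238 at 1 CPM in 5 libraries, −0.0118 in the compared groups alone, −0.0582 after the correction, −0.00625 with block and correction, −0.175 with TPM, −0.0307 without the interferon-high libraries and −0.0493 to 0.0216 as each library was left out.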
